A study of Mus musculus with 8 samples.

Results

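The genes described here are 57 cell adhesion genes with their intracellular partners: 18 cadherins, 5 catenins, the sidekick, DSCAM, contactin, contactin-associated, NCAM, L1, IgLON and SynCAM families, 2 neurexins, 1 neuroligin, 3 synaptic scaffold genes and the synapsin gene Syn3. They were chosen by name and function, with earlier results of these data known, and they are 57 of 21774 protein-coding genes in the annotation. A region was assigned to a gene when its midpoint lay in the mm10 RefSeq span of the gene extended by 1 kb at both ends. By that rule 33 of the 57 genes held 105 of the 12594 regions deposited for the series.

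The study measured 5-hydroxymethylcytosine (5hmC), the product of TET dioxygenases acting on 5-methylcytosine, by CMS-IP, in which bisulfite-converted 5hmC is pulled down with an antibody and sequenced. All 8 samples came from Ogt fl/fl mouse embryonic stem cells (mESC) grown on mitomycin-treated fibroblast feeders: 2 CMS-IP and 2 input samples from cells exposed to 4-OHT over 6 days to delete Ogt (Ogt iKO), and 2 of each from cells kept without 4-OHT. Viable cells were sorted away from the feeders, the Cre driver is not given in the sources used here, and the labels do not say that replicates were separate cultures. Ogt encodes the O-GlcNAc transferase that binds TET proteins. Treated cells were also sorted as YFP+, a step the labels give for these cells alone, so the deletion, the drug and that sort cannot be told apart. The deposited lists name regions with higher or lower signal in the knockout and hold positions only. Depth, fold change and replicate spread are therefore unknown, mESC markers could not be checked in these files, and every interval below covers counting error over regions, which are not biological replicates.

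Classical cadherins join neighbouring cells through calcium-dependent binding of their outer domains, and their tails bind catenins that link to actin. Cdh1 (E-cadherin) is the main cadherin of mouse embryonic stem cells. Most of the other genes act mainly in neurons: contactins, neurexins, neuroligins, NCAMs and IgLONs are surface proteins of axons and synapses, and many of their genes are among the longest in the genome. 5hmC is found mainly in the bodies of genes and at enhancers.

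As a set, the 57 genes held fewer regions than other genes of their length, and most of the regions they held were higher in the knockout, as in the lists as a whole. They carried 83 higher and 22 lower regions over 32.4 Mb of extended span, 0.324 regions per 100 kb (exact 95% Poisson interval 0.265 to 0.392). For each gene, the 50 other protein-coding genes nearest in length served as its length-matched genes. At the rates of those genes, the same spans would have held 141 regions, or 0.433 per 100 kb. The observed count was 0.747 of that number (0.611 to 0.904, from the Poisson interval of the observed count alone). The deficit lay in both directions, at 0.804 of the matched number for higher and 0.589 for lower regions. These are descriptions of a chosen set, and no test of the set was made.

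At least 1 region was present in 33 of the 57 genes, against 20.5% of all protein-coding genes, which are shorter. Higher regions were present in 29 genes, where the share over all protein-coding genes was 15.3%, and lower regions in 14, where it was 8.51%. Both directions occurred in 10 genes, against 3.34% of all protein-coding genes. Genes of matched length gave a nearer comparison: at the shares of the length-matched genes, 34.4 of the 57 would hold a higher and 22.4 a lower region, and 17.7 would hold both. Of the 57 genes, 24 held none, against 17.9 at the matched shares. Among the 33 with regions, 12 held 1 region, 7 held 2 and 14 held 3 or more.

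**Figure D1:**
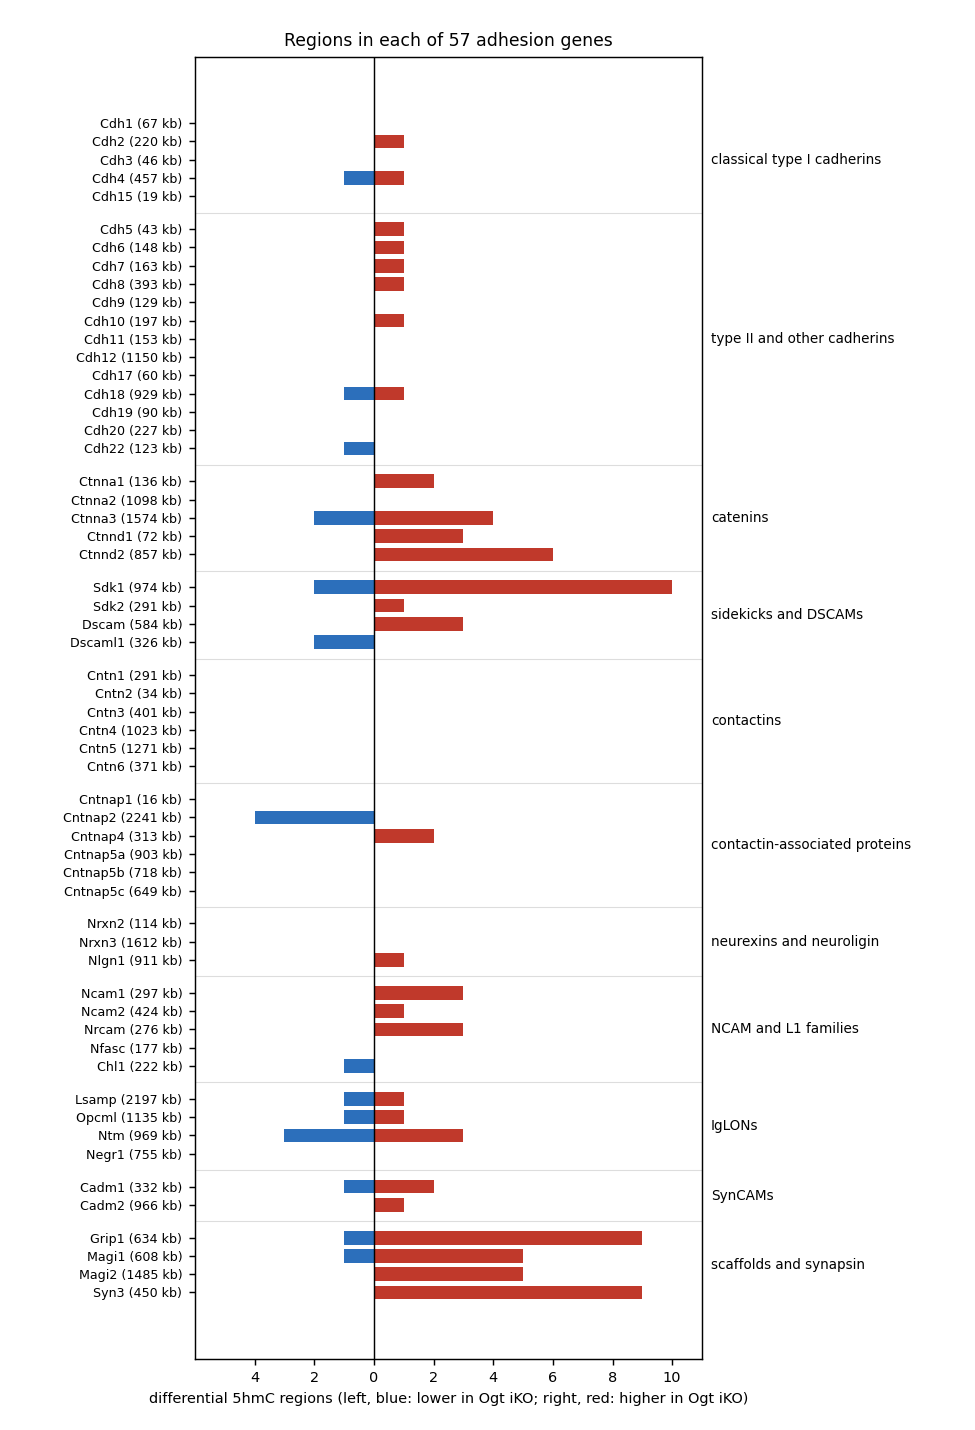
Number of differential 5hmC regions in each of the 57 genes (rows, grouped by role, with the gene span in kb); bars to the right count regions higher in Ogt iKO and bars to the left regions lower in Ogt iKO. The 6 contactins are empty, Sdk1, Grip1 and Syn3 hold 9 or 10 higher regions each, and Cntnap2 holds 4 lower regions and no higher one.

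Most of the shortfall lay in the long genes, with 66 regions against 93.4 at matched rates in genes of 500 kb or more and 35 against 43.8 in those of 100 to 500 kb. Among the 23 genes of 500 kb or more, 9 held no region, where 20.1% of the 204 other protein-coding genes of that length held none. Their density was 0.261 per 100 kb (Poisson interval 0.202 to 0.332), against 0.387 (0.358 to 0.418) in those other genes. The 25 genes of 100 to 500 kb held 0.524 regions per 100 kb (0.365 to 0.728), against 0.678 in others of that length. Of these 25, 8 (32.0%) were empty, near the 35.2% of the 2175 other genes and the 6.98 given by matched shares. The 9 genes under 100 kb held 4 regions, at 0.862 per 100 kb (0.235 to 2.21) against 0.748. Across the 57 genes, Spearman's rho between span and number of regions was 0.322, a description over genes that share libraries and, in part, chromosomes; over the other protein-coding genes it was 0.475.

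**Figure D2:**
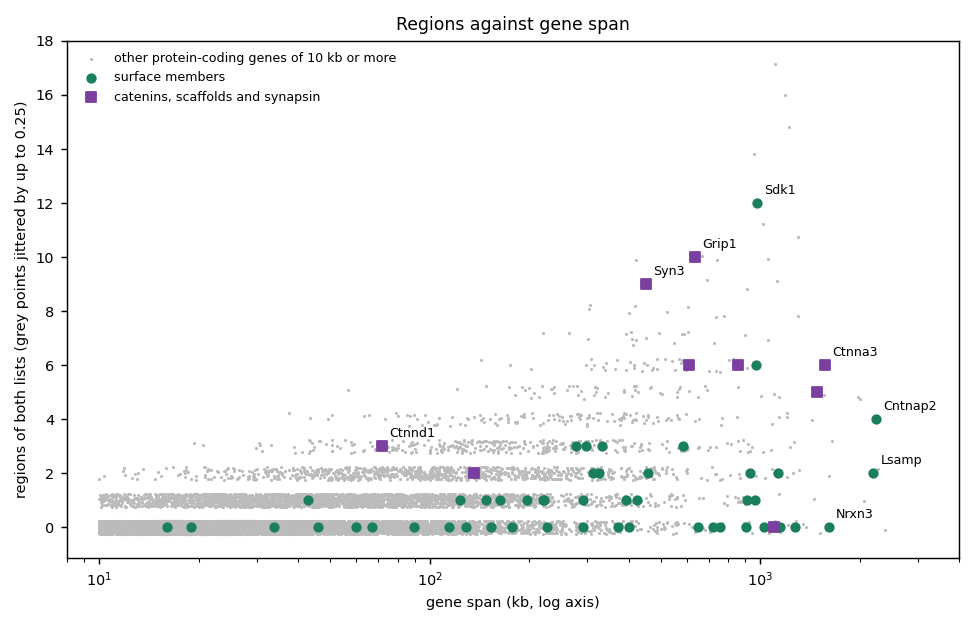
Number of regions of both lists (vertical axis) against gene span (kb, log axis) for the 57 genes (coloured points) and for other protein-coding genes of 10 kb or more (grey, jittered vertically). Sdk1, Grip1 and Syn3 lie above most genes of their length, while Nrxn3, at 1612 kb, lies at 0.

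The 18 cadherin genes of the set were sparse. They held 8 higher and 3 lower regions, 0.237 per 100 kb (Poisson interval 0.118 to 0.423), where their length-matched genes would have held 25.1 regions. This does not extend to every cadherin gene: Cdh13 (T-cadherin, which lacks the cytoplasmic tail) and Cdh23, outside the set, held 12 higher and 4 lower and 1 higher and 5 lower regions, or 1.35 and 1.52 per 100 kb. Of the classical type I cadherins, Cdh1, the gene for P-cadherin (Cdh3) and the muscle cadherin gene Cdh15 held no region. These are short genes, of 66.9 kb or less, and of the 50 length-matched genes of Cdh1, 34 were also empty. Cdh2 (N-cadherin) held 1 higher region of 200 bp. Cdh4 (R-cadherin) held 1 of each direction, and its higher region of 507 bp (chromosome 2, 179898906 to 179899412) overlapped the upper-coordinate end of the gene. It was the only one of the 105 regions with its midpoint within 1 kb of an end of its gene.

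Among the type II and other cadherins, which pattern neurons, vessels and mesenchyme, no gene held more than 2 regions. Cdh5 (VE-cadherin, of endothelium), Cdh6, Cdh7, Cdh8 and Cdh10 held 1 higher region each, 213 to 424 bp wide. Cdh18 held 1 of each direction, both 228 bp wide and far apart in its 929 kb, and Cdh22 held 1 lower region of 406 bp. Cdh9, Cdh11, Cdh12, Cdh17, Cdh19 and Cdh20 were empty. Cdh12 spans 1150 kb on chromosome 15 (20448878 to 21598421), and 38 of its 50 length-matched genes held a region. Cdh6, Cdh9, Cdh10, Cdh12 and Cdh18 lie along 10.4 Mb of chromosome 15, and this whole stretch, genes and intergenic sequence together, held 18 regions, 0.172 per 100 kb (0.102 to 0.272) against 0.473 over the annotated chromosomes. The low density there was thus not limited to the gene bodies.

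The contactins held no region at all. These 6 genes (Cntn1 to Cntn6) encode GPI-anchored immunoglobulin proteins of axons, and they span 3.40 Mb in all, where length-matched genes would have held 15.2 regions. Cntn2 is short, at 33.8 kb, and 37 of its 50 length-matched genes were empty too. For Cntn5, which spans 1271 kb on chromosome 9 (9634223 to 10904775), 38 of 50 length-matched genes held a region, and for Cntn4, at 1023 kb on chromosome 6 (105677632 to 106700141), 39 of 50 did. Cntn3, Cntn6 and Cntn4 lie near one another on chromosome 6 with Chl1, which encodes a close homologue of L1. From the lower-coordinate end of Cntn3 to the upper-coordinate end of Cntn4, 4.54 Mb held 3 regions, 1 higher and 2 lower, or 0.0661 per 100 kb (0.0136 to 0.193), and the 1 of them in a gene of this set was the 246 bp lower region of Chl1. Within 500 kb of either side of the 6 contactins, 20 regions were found, 12 higher and 8 lower, a density of 0.333 per 100 kb (0.204 to 0.515). Around the long contactins there were 5 for Cntn1, 3 for Cntn5, 1 each for Cntn4 and Cntn6 and none for Cntn3. The rest lay around the short Cntn2.

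The contactin-associated proteins are neurexin-like partners of contactins near nodes of Ranvier and at synapses. Of the 6 genes, Cntnap1, Cntnap5a, Cntnap5b and Cntnap5c were empty, the last 3 at 649 to 903 kb, where 40 to 42 of 50 length-matched genes held a region. Cntnap4 held 2 higher regions of 837 and 295 bp, 1434 bp apart. Cntnap2, at 2241 kb the longest of the 57 genes (chromosome 6, 45060061 to 47301393), held 4 lower and no higher regions. All 4 had their midpoints in about the last 120 kb of the gene, at 94.6 to 97.5% of its length from its annotated 5′ end on the plus strand. They were narrow, at 359, 200, 243 and 210 bp (47181171 to 47181529, 47184804 to 47185003, 47215211 to 47215453 and 47244804 to 47245013), and the last 2 also lay in the noncoding gene Gm35280. The remaining 2121 kb of Cntnap2 before the first of them held no region of either list. Within 500 kb of either side of the gene, 6 higher and 3 lower regions were found.

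The last of these regions began 358 bp beyond the window of an annotated internal start of Cntnap2, the closest approach of any region to the RefSeq promoter window (250 bases before to 50 after a start) of these genes. Such windows were found for 39 of the 57 genes, 59 in all, and no region overlapped one, where 0.372% of 21263 windows of protein-coding genes did so. The next closest was a higher region of 552 bp that began 3336 bp beyond the window of the most upstream of the 3 Grip1 starts found. These 2 windows are printed because they are the 2 within 10 kb of a region, a choice made after the distances were seen. They come from RefSeq on GRCm38.p6, at chr6:47244146-47244445 and chr10:119453784-119454083, both on the plus strand, and capitals mark each CpG, the dinucleotide on which TET substrates are found.
Cntnap2 internal start: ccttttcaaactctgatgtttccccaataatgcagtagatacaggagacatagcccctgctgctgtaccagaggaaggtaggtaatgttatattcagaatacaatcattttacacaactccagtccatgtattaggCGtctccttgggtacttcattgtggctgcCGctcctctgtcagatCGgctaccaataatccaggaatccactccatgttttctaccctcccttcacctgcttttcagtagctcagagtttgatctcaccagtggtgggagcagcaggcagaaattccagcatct
Grip1 start: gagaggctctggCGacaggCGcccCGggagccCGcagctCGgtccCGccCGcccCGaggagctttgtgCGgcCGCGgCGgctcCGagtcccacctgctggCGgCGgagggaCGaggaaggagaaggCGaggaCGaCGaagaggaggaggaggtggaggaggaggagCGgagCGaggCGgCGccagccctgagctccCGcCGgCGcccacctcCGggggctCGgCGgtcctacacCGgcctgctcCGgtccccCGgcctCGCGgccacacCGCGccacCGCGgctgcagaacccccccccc
The Cntnap2 window holds 3 CpGs in 300 bases and the Grip1 window 38. The motif CG, which reads the same on both strands, occurs in 95.4% of the 21263 windows. Of those windows, 23.9% hold 3 or fewer and 6.47% hold 38 or more. Over the genes with a window, taking the window richest in CpG for each, the median was 20 CpGs in the 24 genes with a region and 12 in the 15 without, beside 15 over 17492 protein-coding genes. The interquartile ranges of the former pair, 12.8 to 37.2 and 7.5 to 17, overlapped.

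Neurexins and neuroligins bind each other across the synapse. Nrxn3, at 1612 kb on chromosome 12 (88722701 to 90334935), held no region, and 39 of its 50 length-matched genes held at least 1. Nrxn2 was also empty. Nlgn1, at 911 kb, held a single higher region of 200 bp, the smallest width in the lists. Together, the contactin, contactin-associated, neurexin and neuroligin genes of this set held 7 regions in 10.9 Mb, 0.0642 per 100 kb (0.0258 to 0.132), where length-matched genes would have held 43.5. Of these 15 genes 12 were empty, against 4.56 at the matched shares. This pool was not among the planned counts. It joins the role groups with the lowest densities (0, 0.0378 and 0.124 per 100 kb), so its low density is partly set by that choice. The difference was not tested.

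The immunoglobulin adhesion genes of the NCAM and L1 families were closer to their length-matched genes, with 8 regions against 9.81. Ncam1, which marks neural and many other cells, held 3 higher regions of 744, 209 and 736 bp, and Nrcam, an ankyrin-binding L1-family gene, held 3 higher regions of 223, 685 and 217 bp. Ncam2 held 1 higher region of 540 bp and Nfasc (neurofascin) none. Chl1 departed in direction, with its single lower region.

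The IgLONs, small GPI-anchored proteins that shape neurite outgrowth, held as many lower as higher regions, 5 of each in 5.06 Mb. The share of higher regions was thus 50.0% (95% Wilson interval 23.7 to 76.3%), and this interval also holds the 73.9% given by their length-matched genes. In each of the 3 IgLON genes with regions, regions of opposite direction lay close together. In Opcml a lower region of 211 bp was followed 6961 bp on by a higher region of 863 bp. In Lsamp, which spans 2197 kb, the only 2 regions were a lower one of 273 bp and a higher one of 294 bp, 13195 bp apart, at 96.8 and 97.4% of the gene. Ntm, next to Opcml on chromosome 9, held 3 of each direction, among them a higher region of 271 bp and a lower region of 804 bp that were 2807 bp apart. Negr1, the fourth IgLON gene, held none in 755 kb.

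**Figure D3:**
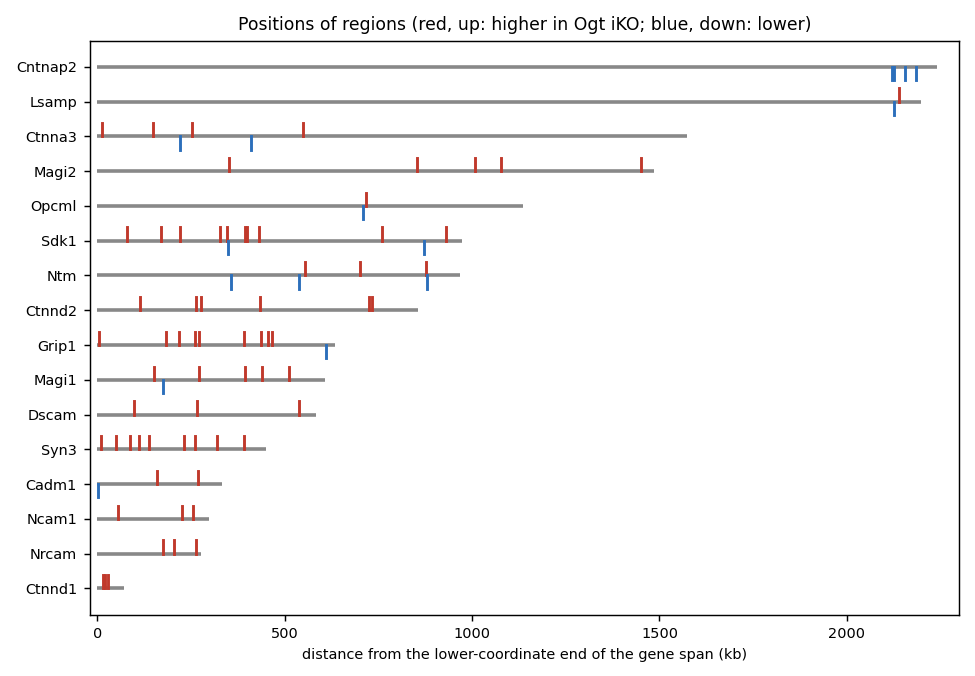
Positions of the regions along the genes with 3 or more regions, with Lsamp and Opcml, as distance from the lower-coordinate end of the span (kb); ticks upward are higher and ticks downward are lower in Ogt iKO. The 4 lower regions of Cntnap2 crowd into about its last 120 kb, while the 9 higher regions of Syn3 are spread over 380 kb.

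The SynCAM gene Cadm1 held some of the widest regions of the set. A lower region of 1468 bp (chromosome 9, 47532592 to 47534059) lay 3.16 kb inside the lower-coordinate end of the gene, and a higher region of 3619 bp (47796408 to 47800026) lay further along the gene, with a higher region of 558 bp between them. Cadm2, at 966 kb, held 1 higher region of 537 bp.

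Sidekicks and DSCAMs are immunoglobulin proteins that direct lamina-specific synapses, in the retina above all, and they were the surface family with the highest density. The 4 genes held 14 higher and 4 lower regions, 0.825 per 100 kb (0.489 to 1.30) against 0.475 in length-matched genes. The excess rested on Sdk1: without it the other 3 genes held 6 regions, 0.497 per 100 kb (0.182 to 1.08) against a matched 0.568. Sdk1 (chromosome 5, 141241497 to 142215586, 974 kb) held 10 higher and 2 lower regions, 1.23 per 100 kb (0.635 to 2.15), and of its 50 length-matched genes 2 were denser and 48 less dense. Its 10 higher regions were 200 to 2446 bp wide, with 8 of them in the first 44.3% of the gene from its 5′ end. A lower region of 291 bp lay in that part too, 2360 bp from a higher one, and the other lower region, of 1253 bp, lay at 89.6%. Sdk2 held 1 higher region of 200 bp. Dscam held 3 higher regions of 637, 264 and 289 bp, and its paralogue Dscaml1 held 2 lower regions of 215 and 200 bp and no higher one.

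Catenins lie inside the cell and bind cadherin tails. Alpha-catenins link to actin, and the delta-catenins p120 (Ctnnd1) and Ctnnd2 bind near the membrane. The 5 genes held 15 higher and 2 lower regions, 0.454 per 100 kb (0.264 to 0.727) against a matched 0.375. Ctnnd2 (857 kb) held 6 higher regions of 200 to 2145 bp and no lower one. Ctnnd1 was the densest of the 57 genes: its 71.9 kb (chromosome 2, 84587096 to 84658977) held 3 higher regions of 864, 922 and 1129 bp within 14.8 kb, 4.06 per 100 kb (0.837 to 11.9), and 1 of its 50 length-matched genes was denser. Ctnna1, the broadly expressed alpha-catenin gene, held 2 higher regions of 376 and 1121 bp, the second of which also lay in Lrrtm2. Ctnna3 held 4 higher and 2 lower regions, all in the first 34.8% of its 1574 kb. Ctnna2, the neuronal alpha-catenin gene, held none in 1098 kb, where 38 of 50 length-matched genes held a region.

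The synaptic scaffold genes and Syn3 held the most regions. Grip1, which binds AMPA receptors, Magi1 and Magi2, which are PDZ proteins of junctions and synapses, and the synaptic vesicle gene Syn3 held 28 higher and 2 lower regions together. Their density was 0.942 per 100 kb (0.635 to 1.34), 2.07 times the matched number (1.40 to 2.95). Syn3 (chromosome 10, 86048746 to 86498926, 450 kb) held 9 higher and no lower regions, 8 of them 457 to 1161 bp and 1 of 211 bp wide. None of its 50 length-matched genes was denser. One of the Syn3 regions, of 656 bp, also lay in Timp3, which sits inside Syn3, so that region cannot be given to Syn3 alone. Grip1 (chromosome 10, 119453238 to 120087267, 634 kb) held 9 higher regions of 219 to 4337 bp and 1 lower region of 200 bp, and none of its 50 length-matched genes was denser. Its regions of 4337 bp (119723837 to 119728173) and 3297 bp (119670763 to 119674059) were, with the Cadm1 region, the widest of the 57 genes. Magi1 held 5 higher regions and 1 lower one. Its lower region of 2278 bp (chromosome 6, 93849870 to 93852147) was the widest lower region of the set, and it began 20686 bp beyond the end of a higher region of 2240 bp (93826944 to 93829183). Magi2 held 5 higher regions of 200 to 1147 bp, 0.336 per 100 kb, beside a matched 0.335.

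Surface proteins and intracellular partners were also counted apart. The 9 catenin, scaffold and synapsin genes held 47 regions, 0.678 per 100 kb (0.498 to 0.902) against a matched 0.412. The 48 surface genes held 58 regions in 25.5 Mb, 0.227 per 100 kb (0.173 to 0.294) against a matched 0.439. Without Grip1 and Syn3, the intracellular partners held 28 regions against 22.4 at matched rates, or 0.479 per 100 kb (0.318 to 0.692) against 0.383. Their excess over length-matched genes was thus smaller, and the interval then held the matched rate. The surface genes lay below their length-matched genes. The roles did not all follow this split, since the surface sidekicks and DSCAMs were denser than the catenins. The split by place in the cell was made after the counts were seen, and the difference was not tested.

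**Figure D4:**
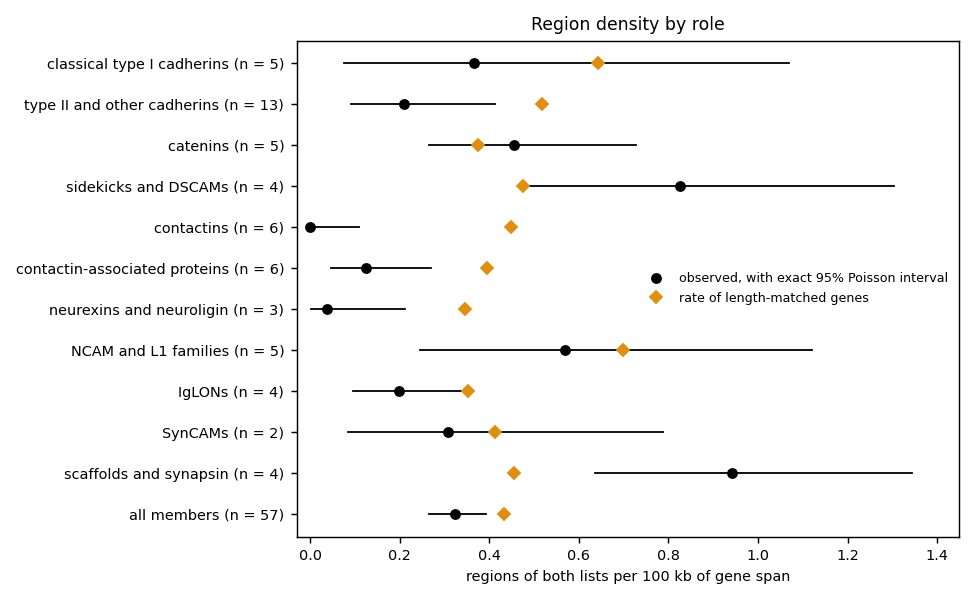
Regions of both lists per 100 kb of gene span in each role group (black, with the exact 95% Poisson interval) beside the rate of the length-matched genes (orange). The contactins, contactin-associated genes, neurexins and neuroligin, and the type II and other cadherins have intervals below the matched rate, while the scaffolds with synapsin and, narrowly, the sidekicks and DSCAMs have theirs above it.

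Over single genes, the 95% Poisson interval lay wholly above the matched rate in 4 genes, Ctnnd1, Sdk1, Grip1 and Syn3, and wholly below it in 5, Cdh12, Ctnna2, Cntn4, Cntn5 and Nrxn3. In the other 48 it held the matched rate. These 57 intervals are unadjusted and cover counting error alone. The 13 genes of 200 kb or more without a region (Cdh12, Cdh20, Ctnna2, Cntn1, Cntn3, Cntn4, Cntn5, Cntn6, Cntnap5a, Cntnap5b, Cntnap5c, Nrxn3 and Negr1) span 10.5 Mb. They were picked for holding no region, so their count is not set against a matched number. Among all 39 genes of the set of 200 kb or more, these 13 were empty, against 8.06 at the matched shares. The 500 kb on either side of these 13 genes held 18 regions in 13 Mb, 0.138 per 100 kb (0.0821 to 0.219). Around the 346 genes matched to them in length, the value was 0.529 (0.505 to 0.554). No region lay in the flanks of 4 of the 13 and of 20 of the 346. Cntn1 and Cntnap5c, with 5 and 4 regions in their flanks, were nearest to the level of the 346. The comparison is uneven, since the 346 were not picked as empty and held 0.461 per 100 kb inside. Flanks of empty genes of that length were not counted apart. Around the 14 genes with 3 or more regions, also picked by their own counts, the same flanks held 0.686 per 100 kb (0.555 to 0.837). Around all 24 genes without a region, short ones included, they held 0.408 (0.332 to 0.498). The value around the 1539 length-matched genes of the whole set, each counted once, was 0.620 (0.608 to 0.632). It lies inside the interval of the 14 genes and above that of the 24. Sparse surroundings were not limited to empty genes: Ctnna3, with 6 regions, had none in its flanks, and the IgLONs had 0.200 (0.0863 to 0.394) around them. Flanks of neighbouring genes can overlap.

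Of the 105 regions, 79.0% were higher in Ogt iKO cells (95% Wilson interval 70.3 to 85.7%). The share was 69.4% (68.3 to 70.5%) over the 6888 regions in other protein-coding genes and 73.4% at the rates of the length-matched genes, which lies inside the interval. Without Sdk1, Grip1 and Syn3 it was 74.3% (63.3 to 82.9%). The share was 93.3% (78.7 to 98.2%) over the 30 regions of the scaffolds with synapsin and 33.3% (9.68 to 70.0%) over the 6 regions of the contactin-associated genes, which come from Cntnap2 and Cntnap4. More lower than higher regions were found in 4 genes, Cdh22, Dscaml1, Cntnap2 and Chl1. All 4 held lower regions alone, as did 146 of the 1539 length-matched genes, each counted once, and 1126 of all 21774 protein-coding genes. Cdh22 and Chl1 held 1 region each and Dscaml1 held 2. The direction of single genes was tested in all 140 protein-coding genes with at least 5 regions, against the 69.6% higher over regions in protein-coding genes (two-sided exact binomial test, Benjamini-Hochberg over the 140). None of the 140 passed an adjusted p of 0.05 in either direction, 0% of the genes tested, and 4 had an unadjusted p below 0.05. The test had little power at these counts, toward higher throughout and toward lower in genes with 5 or 6 regions. Even Sox5, outside the set, with 14 of 14 regions higher, had an exact binomial p of 0.0081 (adjusted p = 0.818). Cdh23, also outside the set, with 5 of 6 regions lower, had p = 0.0117 in the same exact test (adjusted p = 0.818). The absence of calls therefore does not show that single genes shared the common balance. Of the 8 adhesion genes tested, none had an unadjusted p below 0.05. The lowest was that of Syn3, with 9 of 9 regions higher (exact binomial p = 0.0653, adjusted p = 1), and Ntm, with 3 of 6, had p = 0.377 in the same exact test (adjusted p = 1).

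Higher regions in these genes had a median width of 540 bp (interquartile range 267.5 to 863.5 bp, 83 regions), against 583 bp in other protein-coding genes. Lower regions had a median of 244.5 bp (210 to 394 bp, 22 regions), against 323 bp. Of the higher regions, 7.23% were 2 kb or wider, against 8.64% elsewhere in protein-coding genes. Widths are bounded below at 200 bp, at which 7 higher and 5 lower regions of these genes stood.

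In the 39 genes with a known strand, 41 of 80 regions lay before the midpoint of the gene. The median gap between the 72 pairs of neighbouring regions in the same gene was 58.0 kb. Of these pairs 12 were under 10 kb apart, and those of opposite direction among them were in Sdk1, Ntm and Opcml. Only 3 of the 105 regions also lay in another protein-coding gene (Lrrtm2, Lrrtm3 and Timp3), and 8 lay in a noncoding gene. Exons and introns were not separated, since the annotation used here gives gene spans only.

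A further 57 genes of adhesion and synapse assembly, not members of the set, were counted for comparison. They were listed by function, with earlier results of these data known. Plakoglobin and plakophilins, LRRTMs, SLITRKs, FLRTs, receptor phosphatases, teneurins, latrophilins, calsyntenins, cerebellins and DLG scaffolds are among them. Of these 57 genes, 22 held a region (17 a higher and 9 a lower one) and 35 held none, where 34.7 would hold none at the matched shares. They held 41 higher and 13 lower regions, 0.310 per 100 kb (0.233 to 0.404) against a matched 0.413. Of the 57, 9 lie on chromosome X, where none of the adhesion set lies, and these held no region. The 48 on autosomes held 0.395 per 100 kb (0.297 to 0.516) against 0.452 in autosomal genes of their length, a count made after the values were seen. Tenm3 (8 higher and 3 lower) and Tenm4 (7 and 3), teneurin genes that encode partners of latrophilins, held 21 of the 54 regions. Without them the density over all chromosomes was 0.214 (0.148 to 0.301) against 0.419. This last comparison includes the 9 genes on chromosome X without a region, and no value for autosomes alone is given.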

How the data were processed

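CMS-IP and input libraries of mESC were compared by the authors, who deposited 1 list of regions for each direction of change. Each line holds a chromosome, start and end. The submitters' processing notes name Bismark, MACS2 and mm10 without roles. The differential test, its threshold, the use of inputs, spike-ins and replicates, and which sequence could be mapped and tested, are not given in the sources used here; stretches without regions can therefore also be stretches without usable signal, which was not tested. The list name was taken as direction.

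Gene spans came from a RefSeq table of GRCm38.p6 (49997 genes, of which 49595 on assembled chromosomes 1 to 19, X and Y were kept, 21774 protein-coding). All 57 symbols matched. Strand came from the RefSeq promoter table (39 genes). Matched genes were the 50 other protein-coding genes nearest in span; for the longest genes the match is loose, since few genes are as long. Densities divide by the span plus 2 kb. Genes with 3 or more regions, with more lower than higher regions, or of 200 kb or more without a region were named, with the ends and the 5 widest regions of each list.

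Poisson and Wilson intervals are 95% and cover counting error only. Procedures were tested on simulated data. Members and lists were chosen with earlier results of these data known. Python 3.11.15, numpy 2.4.6, pandas 2.3.3, scipy 1.17.1 and matplotlib 3.10.9 were used. Alternatives are given at the end.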

Additional observations from a re-analysis of the deposited data

How the results depend on the processing

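Of 45 recomputed values for 7 results, 40 stayed within the stated error and 5 moved; none reversed. When regions narrower than the pooled median of 453 bp were dropped, the density was 0.151 per 100 kb (0.220 in length-matched genes), 38 genes were empty (27.8 at matched shares) and 91.8% of regions were higher; this setting keeps fewer regions (49) by construction. Without Sdk1, Grip1 and Syn3, a setting chosen after seeing the data, the density was 0.244 per 100 kb and its ratio to length-matched genes 0.565, against 0.747. Across all alternatives that ratio ran from 0.565 to 0.755, and the higher share from 73.9% (regions of a list within 100 kb merged) to 91.8%. Unextended spans, any overlap, and autosomes only left the count at 105, so they bear little on its stability. Since none of the 57 genes lies on chromosome X, autosomes only changed the matched genes alone. Their rate was then 0.456 per 100 kb, the ratio 0.709, and 16.4 genes would be empty at the matched shares. The exact binomial direction test called 0 genes in each setting; with 3 or more regions required, 15 of 576 genes, 1 of them a member, had an unadjusted p below 0.05. No paired analysis was possible because the lists hold no values per sample, and leaving out a replicate could not be done for the same reason.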

Other observations

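Members of this set cluster on chromosomes, and the stretches between them were counted after the gene values were seen. On chromosome 1, from Cntnap5b to Cntnap5a, 16.8 Mb that also hold Cdh20, Cdh7 and Cdh19 held 23 regions, 15 higher and 8 lower, 0.137 per 100 kb (Poisson interval 0.0867 to 0.205), and 1 of these lay in a member. On chromosome 8, the 7.65 Mb from Cdh8 to Cdh1 held 27 regions, 0.353 per 100 kb (0.233 to 0.514), of which 2 lay in members, although the stretch also holds Cdh11, Cdh5 and Cdh3. Summed over the 5 classical type I cadherins, the 500 kb on either side held 41 regions, 20 higher and 21 lower. That was 0.820 per 100 kb (0.588 to 1.11), beside 0.366 (0.0755 to 1.07) inside the genes. The inside value rests on 3 regions, and the intervals overlap. Length-matched genes of the whole set, each counted once, also held more in their flanks, 0.620 against 0.557 inside. Cdh3 and Cdh1 are neighbours on chromosome 8, so most of their flanks is shared sequence. Regions there can count for both genes, which the flank interval does not allow for. Adjacent Opcml and Ntm fill 96.8% of a 2.17 Mb stretch of chromosome 9 that held 4 higher and 4 lower regions.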
